A study of Mus musculus with 7 samples.

Results

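Maoa and Maob encode monoamine oxidase A and monoamine oxidase B, and were taken by their gene names from 49584 features counted in small RNA libraries of crude heart mitochondria. They are 2 of those features, each found once. The pair was chosen by its counts in the knockout and control libraries of this series, where the difference of Maoa between the groups was already known. Every difference of Maoa and Maob between the groups is therefore given as a description, with counting intervals and without a test.

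The libraries came from 4 knockout hearts (genotype Tefm -/-, labelled L/L, cre) and 3 control hearts (genotype Tefm +/+, labelled L/L) of mice. All mice of both groups carried an exon of Tefm, the gene of the mitochondrial transcription elongation factor, between loxP sites. In the knockouts alone, cre driven by the promoter of muscle creatine kinase was present, so that Tefm is removed in heart and skeletal muscle cells while other cells of the heart keep it. The series text speaks of 4 control mice, and 3 control libraries were at hand. Each library counts here as 1 mouse. Where that does not hold, spreads and tests measure the variation between libraries alone. The sources used here give no ages.

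Monoamine oxidases are flavoenzymes anchored in the outer mitochondrial membrane. They oxidise amines to aldehydes and release ammonia and hydrogen peroxide. The A form prefers serotonin and noradrenaline, the B form prefers phenylethylamine, and both accept dopamine and tyramine. Both enzymes are made from nuclear genes, whose mRNAs are translated outside the mitochondria, and the origin of the fragments counted here was not tested. In the heart they are known as breakdown enzymes for transmitters of sympathetic nerves and as a source of hydrogen peroxide.

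The genes lie tail to tail on chromosome X (GRCm38, GENCODE M21). Maoa (ENSMUSG00000025037.6) runs from 16619698 to 16687818 on the plus strand and Maob (ENSMUSG00000040147.14) from 16709282 to 16817366 on the minus strand, with 21.5 kb between their ends. No annotated gene overlaps either of them or lies in the gap. Their protein-coding transcripts have 15 coding exons each, of which 13 have the same coding length in both genes, and the coding sequences were identical at 71.3% of 1548 aligned bases. A fragment that matches exactly could be assigned to the wrong oxidase only where the transcripts share a stretch. Matches with mismatches and matches shorter than 20 bases were not examined. The longest shared stretch was 35 bases, and all 16 of the 20-base words common to both transcripts lie in it. It is printed with its surroundings, 5′ to 3′ along the mRNA, because exact matches of 20 bases or more could mix the counts of the pair there. The long run of capitals marks the shared stretch, and the capital TGC after it is the codon for the cysteine that carries the covalently bound flavin, codon 406 of Maoa and codon 397 of Maob.
Maoa: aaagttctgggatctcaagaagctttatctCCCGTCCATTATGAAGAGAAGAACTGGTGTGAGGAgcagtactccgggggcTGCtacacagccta
Maob: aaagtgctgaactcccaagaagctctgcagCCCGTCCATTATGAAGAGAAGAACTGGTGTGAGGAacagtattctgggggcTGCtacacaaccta
Outside this stretch, 20-base words of Maoa recurred in transcripts of other genes, 377 of 2427 of them in the 3′ UTR (15.5%) and none in the 5′ UTR. In Maob there were none in either UTR. The sources used here do not say how reads that match several places were treated, and the share of Maoa counts that fall on such words was not tested.

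Gene counts summed to between 973835 and 1302619 in knockout libraries and to between 1560798 and 2570739 in control libraries. Counts at nuclear protein-coding genes made up between 2.28% and 18.2% of them in knockouts and between 3.27% and 6.23% in controls, and values are therefore given on several scales. Markers of cardiomyocytes were all detected (7 of 7). Those of sympathetic neurons summed to 0 to 2.01 CPM in knockouts and 0 to 1.57 CPM in controls, with no count for Th, Slc6a2, Chga and Npy in any library. Tefm had 3 counts in the knockouts and 3 in the controls, so the labels could not be checked from it.

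Maoa was read in every knockout library and was at the limit of detection in every control library. The raw counts were 6, 18, 12 and 29 in knockouts 1 to 4, against 1, 1 and 0 in controls 1 to 3. Each knockout library had more Maoa counts than the control libraries together. The knockout libraries held fewer counts in total, but the totals are not a measure of depth for mRNA. At nuclear protein-coding genes, knockouts 1 to 4 held 29203, 44615, 72044 and 188642 counts and controls 1 to 3 held 51111, 160267 and 79048. The summed 65 knockout and 2 control counts, scaled to library sizes normalised by trimmed mean of M-values (TMM), gave a ratio of 25.7 (exact 95% interval 6.83 to 217). This interval covers counting error only, and its width comes from the 2 control counts. At the knockout rate, 10.2, 26.2 and 15.0 counts would stand in controls 1 to 3, or 51.4 together. In those libraries 1, 1 and 0 were found.

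**Figure D1:**
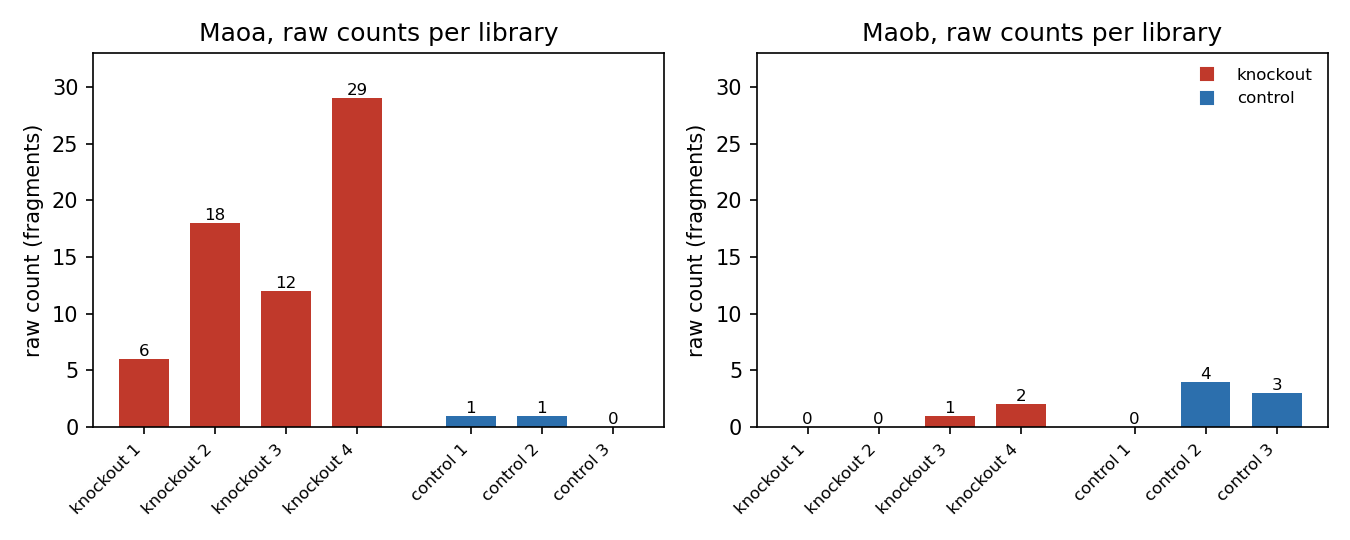
Raw counts of Maoa and Maob (vertical axis, fragments) in each of 4 knockout and 3 control libraries, 1 bar per library with its count above it. Maoa has 6 to 29 counts in knockouts and 0 or 1 in controls, and Maob has 0 to 2 in knockouts and 0 to 4 in controls.

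In CPM, counts brought to a normalised library size of 1000000, Maoa stood at 9.16, 18.1, 7.93 and 9.15 in knockouts 1 to 4, against 1.01, 0.392 and 0 in controls 1 to 3. The mean was 11.1 ± 4.70 CPM in knockouts (SD, n = 4) and 0.466 ± 0.507 CPM in controls (SD, n = 3). The groups did not overlap. Of all 1505 genes with enough counts to test, 14.0% had every knockout above every control on this scale, and nothing is read from that share, since Maoa was chosen with this contrast in view. Knockouts 1, 3 and 4 lay close to each other and knockout 2 above them, while the 95% counting interval of knockout 2 (10.7 to 28.6 CPM) overlapped that of each other knockout. Maoa in control 3, at 0 counts, is limited to 2.05 CPM by a count of 0 (3 counts).

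**Figure D2:**
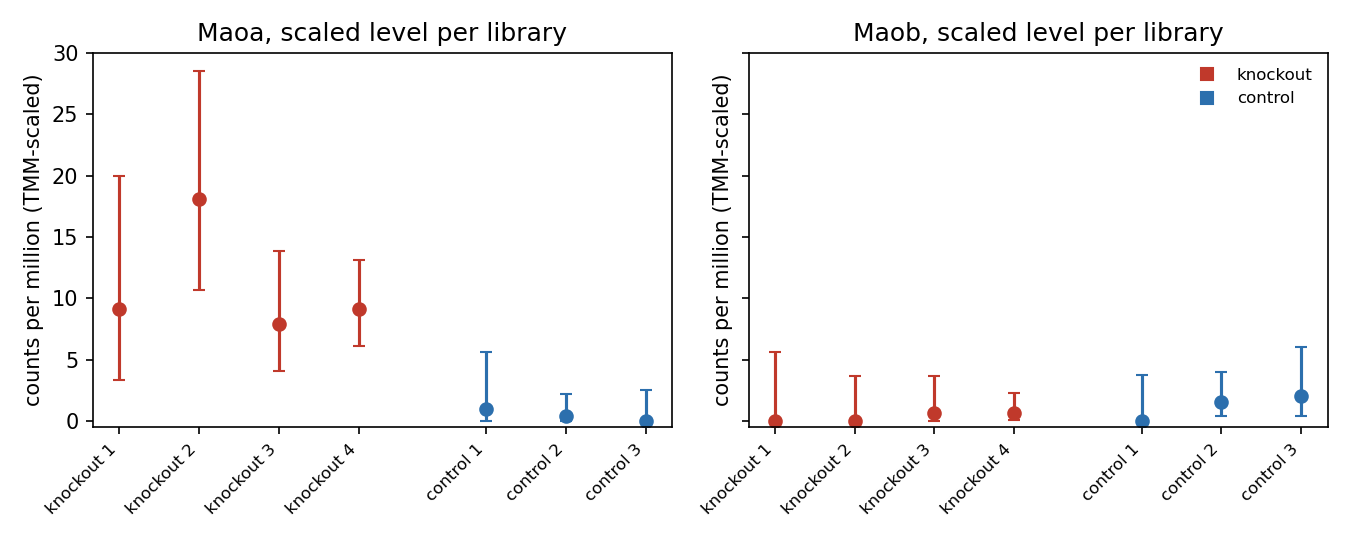
Levels of Maoa and Maob in CPM of TMM-normalised library size (vertical axis) per library, with exact 95% Poisson intervals for counting error. All 4 knockouts lie between 7.93 and 18.1 for Maoa and all 3 controls at or below 1.01, while for Maob the groups overlap.

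Maoa was higher in knockouts on every scale tried, by amounts that differed between scales. In CPM of nuclear protein-coding counts alone, which removes the unequal share of mRNA fragments, Maoa was at 205, 403, 167 and 154 in knockouts 1 to 4 and at 19.6, 6.24 and 0 in controls 1 to 3. Over the 5 planned scalings other than TMM the summed ratio ran from 24.0 with DESeq2 size factors to 48.4 with mitochondrially encoded counts. Leaving out 1 library at a time, it ran from 15.7 without control 3 to 34.9 without control 1. The authors' deposited table gives a log2 fold change of 3.32 ± 0.68 (SE) for Maoa, with a direction of knockout over control as read from the values.

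Maob was scarce in both groups. The raw counts were 0, 0, 1 and 2 in knockouts 1 to 4 and 0, 4 and 3 in controls 1 to 3, or 3 counts against 7. In CPM it was at 0, 0, 0.661 and 0.631 in knockouts and at 0, 1.57 and 2.05 in controls, and the groups overlapped at 0. The ratio was 0.339 with an exact 95% interval of 0.0565 to 1.48, which includes 1. Ratios from 0.0565 to 1.48 thus lie within counting error, which leaves out the variation between libraries. Whether Maob differed between the groups was not settled at this depth. A count of 0 allows up to 4.58 CPM in knockout 1 and 3.01 CPM in knockout 2, above the level of any control. The authors' deposited table has a log2 fold change of -0.99 ± 0.80 (SE) for Maob, again another measure than the count ratio.

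A count of a neighbouring protein in the same membrane gives a scale that needs no library size. Vdac1 encodes the main voltage-dependent anion channel of the outer membrane, had the highest level per kb of exons of 51 outer membrane genes in every library, and was taken for this purpose after the values were seen. For every 100 counts of Vdac1 there were 30, 45, 24.5 and 30.9 counts of Maoa in knockouts 1 to 4, against 1.85, 1.16 and 0 in controls 1 to 3. Maob had 0, 0, 2.04 and 2.13 per 100 counts of Vdac1 in knockouts and 0, 4.65 and 5.66 in controls. All 4 knockouts again lay above all 3 controls for Maoa, and the ratio of summed counts was 30.9 for Maoa (exact 95% interval 8.22 to 261) and 0.407 for Maob (0.0680 to 1.78).

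**Figure D3:**
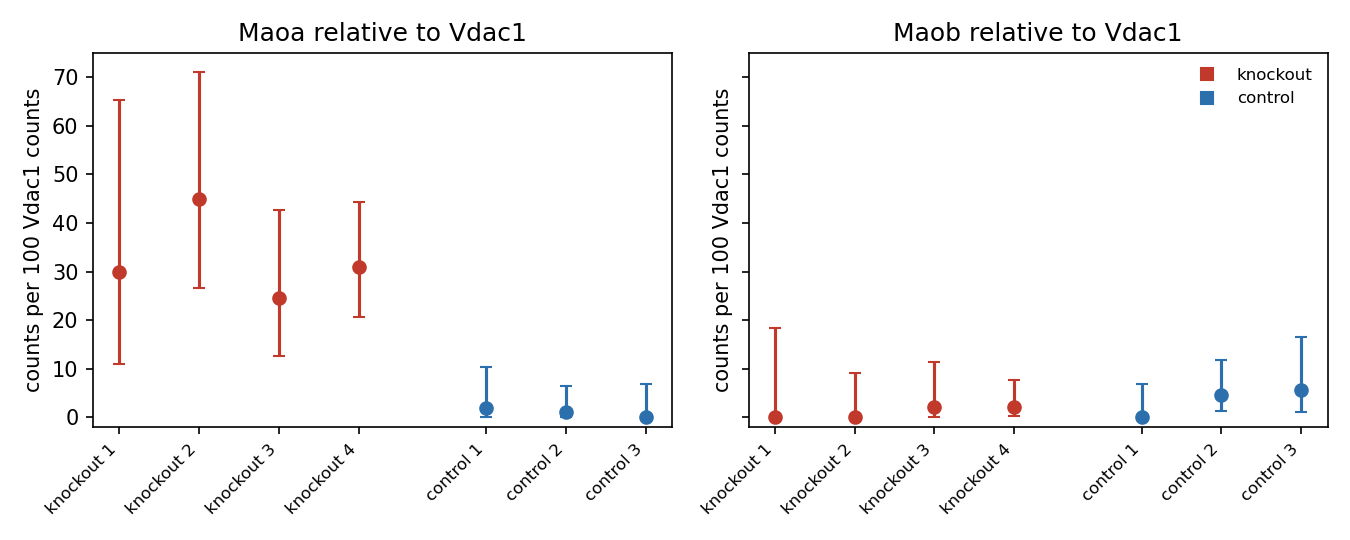
Counts of Maoa and Maob per 100 counts of Vdac1 (vertical axis) in each library, with exact 95% Poisson intervals of the oxidase count that leave out the counting error of Vdac1. Maoa lies between 24.5 and 45 in the 4 knockouts and at or below 1.85 in the 3 controls, and Maob is at or below 5.66 throughout.

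The balance of the pair was tilted to Maoa in knockouts and, within a few counts, to Maob in controls. Maoa made up 6 of 6, 18 of 18, 12 of 13 and 29 of 31 counts of the pair in knockouts 1 to 4. In controls 1 to 3 it made up 1 of 1, 1 of 5 and 0 of 3. Summed, the share was 95.6% in knockouts (65 of 68, exact 95% interval 87.6 to 99.1) and 22.2% in controls (2 of 9, 2.81 to 60.0). Library scaling cancels in this share. Control 1 had a single count of the pair. The control share was 12.5% without control 1, 25% without control 2 and 33.3% without control 3, and the mean of the single-library shares was 40.0%, so it is poorly fixed by 9 counts. The odds of Maoa over Maob were 64.2 times as high in knockouts as in controls (conditional estimate, exact 95% interval 8.29 to 899).

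Since the exons of Maoa add up to 4.17 kb and those of Maob to 2.79 kb, the share per kb of exons was 93.5% in knockouts and 16.1% in controls. On that per-length scale the level of Maoa was 2.66 ± 1.13 CPM per kb in knockouts (SD, n = 4) and 0.112 ± 0.122 in controls (SD, n = 3), and that of Maob was 0.116 ± 0.134 in knockouts and 0.433 ± 0.385 in controls. The sum of both oxidases was 5.97 times as high in knockouts as in controls (exact 95% interval 2.97 to 13.6). In bulk libraries, more RNA per cell and more cells of the type that holds it cannot be told apart.

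**Figure D4:**
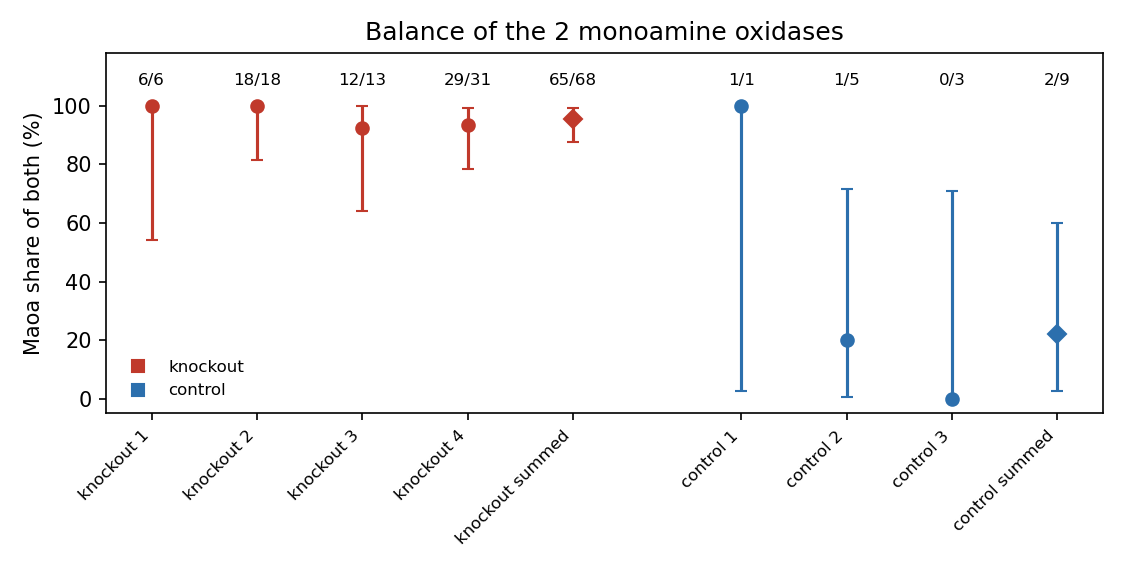
Maoa as a percentage of the counts of Maoa and Maob together (vertical axis) per library (circles) and for the summed counts of each group (diamonds), with exact 95% binomial intervals and the counts above each point. Knockouts lie between 92.3% and 100%, and the summed shares are 95.6% in knockouts and 22.2% in controls.

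Among 51 genes of outer membrane proteins, the oxidases included, Maoa ranked 11, 4, 13 and 10 from the top by CPM per kb in knockouts 1 to 4. In controls 1 and 2 it ranked 36 and 46, and in control 3 it was among the 6 genes of the list at 0. Its level in knockouts exceeded the median gene of the list, which lay between 0.608 and 0.808 CPM per kb in those libraries. Maob was at 0, 0, 0.237 and 0.226 CPM per kb in knockouts 1 to 4, under the median gene in each. It was at 0, 0.562 and 0.736 CPM per kb in controls 1 to 3, where the median gene lay at 0.597, 0.628 and 0.722, and the values of controls 2 and 3 rest on 4 and 3 counts.

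The nearest protein-coding genes on either side were not read in any library. They are Cypt1, 96.0 kb from the Maoa side, and Ndp, which encodes the secreted ligand norrin, 68.2 kb from the Maob side, and each had 0 counts in all 7 libraries.

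For the rest of the outer membrane the summed levels of the groups overlapped. The summed level of 49 listed genes lay between 333 and 390 CPM in knockouts and between 303 and 356 CPM in controls. Of these genes 48 had a count and 11 had enough counts to test, and 1 of the 11 rose and 0 fell (edgeR quasi-likelihood test at an adjusted p under 0.05 over all genes), where 6.98% of all 1505 genes tested passed, 5.25% upward and 1.73% downward. The median log2 fold change of the 11 was 0.48, against 0.02 over all genes. Hk1, a hexokinase that docks on the outer membrane, had 19, 28, 50 and 117 counts in knockouts 1 to 4 and 14, 30 and 9 in controls 1 to 3. It stood at 31.8 ± 4.04 CPM in knockouts (SD, n = 4) and 10.7 ± 4.08 CPM in controls (SD, n = 3). The log2 fold change was 1.58 ± 0.33 (SE), with an edgeR adjusted p of 0.0347. Hk1 cleared the low-count filter through its knockout counts, and its control counts would not have been enough. Tomm70a, an import receptor, had 0.76 ± 0.36 and Vdac2 0.59 ± 0.28, and neither passed. With total, microRNA or mitochondrially encoded counts as the scale all 11 were positive, against 8 with TMM. On those scales the median of all genes tested was between 0.88 and 1.12. In the TMM fit the log2 fold change of Maoa was 4.50 ± 0.68 (SE), given here as a description.

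Of 18 listed genes that handle hydrogen peroxide, a product of the reaction, all had a count and 6 could be tested. Txnrd1, the cytosolic thioredoxin reductase, rose, and 0 fell, where 5.25% of all 1505 genes tested rose and 1.73% fell. Nothing about the list is read from 1 call. Txnrd1 had 4, 16, 19 and 42 counts in knockouts 1 to 4 and 1, 4 and 4 in controls 1 to 3. The log2 fold change was 2.73 ± 0.43 (SE), with an edgeR adjusted p of 0.0123. Its knockout counts alone brought it over the filter on low counts. Cat, the catalase that removes hydrogen peroxide, was at 25.4 ± 3.11 CPM in knockouts (SD, n = 4) and 14.0 ± 3.93 CPM in controls (SD, n = 3), with an adjusted p of 0.104 by edgeR. The median of the 6 was -0.14, against 0.02 over all genes tested. With total, microRNA or mitochondrially encoded counts as the scale it was between 0.83 and 1.11. That of all genes tested was then between 0.88 and 1.12.

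Of 15 genes that break down amines or their aldehydes, 12 had a count and 3 could be tested. By edgeR 0 of the 3 passed, where 6.98% of all 1505 genes tested did. At an unadjusted p under 0.05 by edgeR 1 of the 3 stood, as did 353 of all 1505 genes tested. DESeq2 called 0 of the 3 as well, where it called 131 up and 100 down over all genes. Akr1a1, an aldehyde reductase, had 65 counts in knockouts and 33 in controls. Its log2 fold change was 0.82 ± 0.40 (SE), with an edgeR adjusted p of 0.268. Aldh2, the mitochondrial aldehyde dehydrogenase, had 73 counts in knockouts and 98 in controls. Its log2 fold change was -0.61 ± 0.25 (SE), with an edgeR adjusted p of 0.191.

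Monoamine oxidases belong to the flavin enzymes, and of 22 genes for flavin supply and mitochondrial flavoenzymes 9 could be tested, of which 1 fell and 0 rose. Over all 1505 genes tested 1.73% fell and 5.25% rose, and nothing about the list is read from 1 call. Ivd, the isovaleryl-CoA dehydrogenase of leucine breakdown, was at 6.49 ± 3.21 CPM in knockouts (SD, n = 4) and 26.6 ± 5.84 CPM in controls (SD, n = 3). The log2 fold change was -1.92 ± 0.38 (SE), with an edgeR adjusted p of 0.0325. Ivd had 3, 3, 13 and 31 counts in knockouts 1 to 4 and 20, 72 and 46 in controls 1 to 3. It cleared the low-count filter through its control counts, and its knockout counts would not have been enough. Sdha, the complex II subunit that also binds its flavin covalently, had -0.58 ± 0.33, and the median of the 9 was -0.58. With total, microRNA or mitochondrially encoded counts as the scale, the median of all genes tested moved to between 0.88 and 1.12, and 7 or 8 of the 9 were then positive, against 2 with TMM. Those scalings called 0 genes of the outer membrane, peroxide and flavin lists. Over the 5 scalings other than TMM the log2 fold change ran from 1.54 to 2.78 for Hk1, from 2.68 to 3.92 for Txnrd1 and from -2.01 to -0.58 for Ivd. Without control 2 or control 3, 0 genes of the whole table were called (395 and 407 at an unadjusted p under 0.05 by edgeR), so Hk1, Txnrd1, Ivd, Postn, Cd74 and Acta2 lost their calls there. The adjusted p also missed the threshold without control 1 for Hk1 and Txnrd1, without knockout 2 or knockout 3 for Hk1 and Ivd, and without knockout 1 for Ivd. It ran up to 0.151 for Hk1, 0.099 for Txnrd1 and 0.0947 for Ivd. With 1 library left out the log2 fold change ran from 1.16 to 1.71 for Hk1, from 2.37 to 2.92 for Txnrd1 where it was tested, and from -2.29 to -1.65 for Ivd, and Txnrd1 had too few counts to test without knockout 2, 3 or 4.

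Genes that make, carry or sense the amines had too few counts for a test. Transport genes had 3 counts in knockouts and 10 in controls, and synthesis genes had 2 in knockouts and 4 in controls, with Th, Pnmt, Tph1 and Tph2 at 0 throughout. Receptor genes had 16 counts in knockouts and 48 in controls, with a summed level of 0 to 4.10 CPM in knockouts and 8.24 to 12.3 CPM in controls. The following were picked after the values were seen, so their intervals do not serve as a test. Adra1a, an alpha-1 adrenergic receptor, had 2 counts in knockouts, all in knockout 4, and 13 in controls, a ratio of 0.122 (exact 95% interval 0.0133 to 0.537). Adra1b had 5, all in knockout 4, against 16 (0.247, 0.0707 to 0.705). Adrb1, the main beta receptor of cardiomyocytes, had 1 against 8 (0.0988, 0.00223 to 0.737). Slc22a3, a transporter that takes amines into non-neuronal cells, had 0 counts in knockouts and 0, 3 and 4 in controls 1 to 3, and the exact 95% interval of the ratio reached up to 0.548. Aoc3, the amine oxidase of the cell surface, had 12 counts in knockouts, 10 of them in knockout 4, and 31 in controls (0.306, 0.143 to 0.612). All these picks were lower in knockouts. Other genes of the lists went the other way, such as Aldh1a1, an aldehyde dehydrogenase, with 25 against 7 (2.82, 1.19 to 7.73).

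The summed levels of cardiomyocyte and macrophage markers did not overlap between the groups, and those of the other marker lists did. Of all 1505 genes tested, 14.0% had every knockout above every control. The share with every knockout below every control was not computed, so nothing is read from this separation. The summed level of 7 cardiomyocyte markers was 1389 to 2031 CPM in knockouts and 2915 to 3930 CPM in controls. With TMM 0 of the 7 were positive, against 3 with total, microRNA or mitochondrially encoded counts as the scale. On those scales the median log2 fold change over all genes tested was 0.89, 0.88 and 1.12, against 0.02 with TMM. That of 4 smooth muscle markers was 5.02 to 18.0 CPM in knockouts and 17.1 to 20.4 CPM in controls, which overlap, and of which Acta2 fell (log2 fold change -1.43 ± 0.33, edgeR adjusted p = 0.0428). Macrophage markers (6 genes) summed to 15.2 to 29.0 CPM in knockouts and 40.3 to 61.6 CPM in controls, and endothelial markers (6 genes) to 31.1 to 86.4 CPM in knockouts and 79.5 to 152 CPM in controls, the endothelial ranges overlapping. The median log2 fold change was -0.72 over 3 tested macrophage genes and -1.05 over 4 tested endothelial genes. With total, microRNA or mitochondrially encoded counts as the scale it was 0.02, -0.18 and 0.26 for macrophage genes and 0.02, 0.03 and 0.30 for endothelial genes. Each of these medians lay below that of all genes tested on the same scale. Of the macrophage and endothelial genes, the macrophage gene Cd74 fell with TMM (log2 fold change -2.12 ± 0.43, edgeR adjusted p = 0.0342). Cd74 had 3, 2, 2 and 18 counts in knockouts 1 to 4 and 12, 52 and 22 in controls 1 to 3. It cleared the low-count filter through its control counts, and its knockout counts would not have been enough. Fibroblast markers (6 genes) overlapped, with 206 to 639 CPM in knockouts and 237 to 419 CPM in controls, and Postn among them had 8, 26, 53 and 174 counts in knockouts 1 to 4 and 2, 16 and 9 in controls 1 to 3. Postn had a log2 fold change of 2.69 ± 0.58 and an edgeR adjusted p of 0.0366, and like Txnrd1 it cleared the low-count filter through its knockout counts alone. It was the only 1 of the 6 fibroblast genes called, and the median of the 6 was 0.53. Of them 4 were positive, while Dcn (-0.79 ± 0.43) and Pdgfra (-0.29 ± 0.57) were negative. Platelet markers, from cells rich in the B form in humans, reached 22.9 CPM in knockout 1 and 0 to 0.661 CPM in the other knockouts. In controls they lay at 2.01 to 7.53 CPM. Erythroid markers lay at 5.02 to 18.3 CPM in knockouts and 11.4 to 19.2 CPM in controls, and mast cell and liver markers at or below 3.05 CPM in every library. The part of such shifts in the counts of Maoa and Maob was not tested.

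Genes whose levels ran most like those of Maoa over the 7 libraries were Gyg, Lonp1, Hif1a, Grb10 and Myo1c, by Pearson's r of log2 CPM over 1504 genes. Gyg, glycogenin, the primer protein of glycogen synthesis, had r = 0.993, and its counts were 13, 32, 27 and 66 in knockouts 1 to 4 and 5, 14 and 5 in controls 1 to 3. Lonp1, the matrix protease, had r = 0.985, Hif1a, the hypoxia-inducible factor, 0.980, Grb10, an adaptor of the insulin receptor, 0.980, and Myo1c, an unconventional myosin, 0.978. These values contain the difference between the groups. After subtraction of the group means r was 0.910 for Gyg and 0.944 for Grb10, and it lay between 0.628 and 0.768 for Lonp1, Hif1a and Myo1c. The libraries share depth and mRNA content with every gene compared, and no test is attached to these values. Closest to Maob were Notch3, Psap, Thbd, Slc2a4 and Tfrc, with r between 0.925 and 0.958 over 1505 genes, a likeness that rests on 10 counts of Maob.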

How the data were processed

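Fragments per gene were counted by the authors, and the raw counts deposited for 4 knockout and 3 control libraries are whole numbers. Per the labels' protocols, RNA from crude heart mitochondria was made into single-end Illumina small RNA libraries. Per the submitters' processing notes the build was mm10, with cutadapt 1.10, Bowtie2, SAMtools 1.3.1, bedtools, featureCounts and DESeq2 1.14.1. The sources used here do not give the annotation release, the strand setting or the treatment of multiply mapping reads. Of the authors' deposited comparison table, the log2 fold change and SE of Maoa and Maob are printed where that table is named, and all other log2 fold changes come from the edgeR fit. The normalised counts were not used.

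Maoa and Maob were taken by name and joined by identifier. Count ratios are summed counts over summed TMM-normalised library sizes with exact 95% (Clopper-Pearson) intervals. No molecular identifiers are described, so intervals and floors (3 counts) cover counting error only. All genes were tested with edgeR 4.0.16 (quasi-likelihood, TMM, minimum count 10, Benjamini-Hochberg adjusted p under 0.05, R 4.3.3), and the code was tested on simulated data. Lists were matched by symbol. Named list genes were those called, or up to 3 with the smallest adjusted p, and the 5 genes most like each oxidase in log2 CPM (prior count 2) were named. Others named were chosen after their values were seen. Some list genes are not reported here. Members and lists were chosen with earlier results of these data known. Exon lengths and transcripts come from GENCODE M21. Alternatives were 5 other scalings, 2 filters, DESeq2 1.42.0, a replicate block, each library left out, and Vdac1 as a scale, added after the data were examined.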

Additional observations from a re-analysis of the deposited data

Results flagged for a closer look

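Maoa in knockout 2 stood apart from the other knockouts in CPM. It was at 18.1 CPM there, against 7.93 to 9.16 CPM in knockouts 1, 3 and 4, and the gap to its nearest neighbour was 0.878 of the whole range of the group, more than Dixon's test allows for 4 values. About 1 group in 20 is marked so when nothing stands apart. In raw counts and in CPM of total or of nuclear protein-coding counts the same 4 libraries were not marked. Without knockout 2 the count ratio of Maoa was 23.1.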

How the results depend on the processing

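The count ratios of Maoa and Maob and the shares of Maoa kept their direction and stayed inside their counting intervals under all alternatives run, 14 for each ratio, 6 for the knockout share and 5 for the control share. The Maoa ratio ran from 15.7 to 48.4 and the Maob ratio from 0.230 to 0.639. In the fit across all genes Maoa was tested under 12 of 16 alternatives with a log2 fold change of 3.91 to 5.69, and fell under the low-count filter without knockout 2, 3 or 4 and with the replicate block. Maob could be tested under 1 of them. Calls over all genes were 79 up and 26 down with all libraries. Scaling to total counts gave 10 up and 1 down, to mitochondrially encoded genes 7 up and 1 down, and to microRNA genes 0 and 0 (28 at an unadjusted p under 0.05 by edgeR). Without a low-count filter there were 125 up and 67 down, and with DESeq2 131 up and 100 down. Leaving out 1 library gave 0 to 61 up and 0 to 22 down. Of the outer membrane, peroxide and flavin lists, each with 1 call, the calls were 0 under those 3 scalings and 0 to 1 with 1 library left out. The outer membrane list also had 0 with a minimum count of 5 or no filter. The cause was not tested. With the replicate number as a block (knockout 4 has no partner) the calls were 0 up and 0 down, and 0 in those 3 lists (252 at an unadjusted p under 0.05 by edgeR). The deviations of same-numbered libraries from their group means correlated at 0.53, -0.80 and 0.32. Control 1 and control 2 each correlated better with a library of another number, and control 3 correlated best with knockout 3. Deviations within a group sum to 0, so with 3 and 4 libraries these values cannot decide whether the numbers pair the libraries. Depth limits Maob above all, with 10 counts in 7 libraries, and the 2 control counts of Maoa set the upper end of its interval.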
